A study of Mus musculus with 12 samples.

Results

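The 10 genes described here encode 3 Notch receptors (Notch1, Notch2 and Notch3), 4 Notch ligands (Dll1, Dll3, Jag1 and Jag2), a pair of transcriptional repressors that Notch signalling induces (Hes1 and Hey1) and Hes6, a related protein that opposes Hes1. They were picked by symbol, and all 10 were found among the 15767 genes of the deposited tables. RNA sequencing was done on 12 libraries of wild-type Neuro-2a, a neuron-like line grown from a mouse neuroblastoma, so that all libraries come from a single line. A miR-155 mimic, a miR-155 inhibitor and a control small RNA were each given to 4 libraries, with transfection by RNA Fit without serum or antibiotics, fresh growth medium after 4 hours, and culture to day 2. A mimic is a synthetic RNA meant to supply the microRNA and an inhibitor is meant to block it. The labels do not give the doses or the miR-155 arm, and miR-155 itself was not analysed here. Libraries are named by treatment and by the number 1 to 4 that their labels carry.

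Notch receptors sit on the cell surface and are switched on by Delta-like or Jagged ligands on a neighbouring cell. Pulling by the ligand allows ADAM10 and then γ-secretase to cut the receptor, and the released intracellular part joins RBPJ and Mastermind proteins on DNA to turn on HES and HEY genes. These repressors hold back proneural factors, so in the developing nervous system the pathway keeps progenitor cells from turning into neurons.

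Total counts ran from 60695388 to 74200532 per library. All 15 sympathetic neuroblastoma markers on the list had a row in the tables, at levels from near 0 to very high. Hand2, a transcription factor of sympathetic neurons, had 1520 to 1980 TPM (transcript abundance per length, scaled to a fixed total), and Dbh, which makes noradrenaline, had 50.4 to 75.3 TPM. Hand1 was at 0 to 0.59 TPM, and Th, the first enzyme of catecholamine synthesis, at 0.781 to 1.66 TPM. Summed markers of immune cells reached 0.6223 TPM at most, and those of fibroblast and mesenchymal cells 9.8981 TPM at most. The 3 libraries numbered 4 stood apart from the other 9. With edgeR's quasi-likelihood test at a Benjamini-Hochberg adjusted p under 0.05, 20.4% of the 13014 genes tested were higher and 21.1% were lower in number 4 than in numbers 1 to 3. What the number marks is not stated in the labels. Results for the treatments are therefore given with and without number 4.

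MicroRNAs find messenger RNAs mainly through their seed, bases 2 to 8, which pairs with matching letters in the 3′ UTR. The seed is shown because it sets which of the Notch genes hold a match. RefSeq gives the mature sequence of the 5p arm at chr16:84714143-84714165 (GRCm38.p6, plus strand), with the seed in capitals.
mmu-miR-155-5p: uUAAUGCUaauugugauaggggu
Among the 10 genes, Dll3, Hes6 and Hey1 hold a seed match in their longest annotated 3′ UTR (GENCODE M21, GRCm38), against 12.8% of the 15412 genes with such a UTR. The matches lie on the minus strand at chr7:28293571-28293577 in Dll3, at chr1:91411709-91411715 in Hes6 and at chr3:8663983-8663989 in Hey1. That of Dll3 is a 7mer-A1 (GCATTAA) and the others are 7mer-m8 (AGCATTA), with the match in capitals below.
Dll3: cctaagtgctgGCATTAAaggcgtgcacc
Hes6: tcttgagactgAGCATTAgggtcctgggc
Hey1: agggtcagcaaAGCATTAtatttgcaaac
A letter match is a description and does not show that miR-155 binds there. The 8mer form (AGCATTAA), held by 3.02% of genes, was in none of the 10.

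On the TPM scale, which allows genes to be set side by side, the 10 genes spanned a wide range of levels. Jag2 was the most abundant, at 54.91 to 72.9 TPM over the 12 libraries (median 58.2), above the median level of 79% of genes. Hes6 followed at 37.92 to 55.7 TPM (median 50.89) and Hey1 at 34.96 to 47.29 TPM (median 39.4). The range of Hes6 overlapped those of Jag2 and Hey1, while the ranges of Jag2 and Hey1 did not meet. Jag2 was above Hes6 in all 12 libraries and Hes6 above Hey1 in 9 of 12. Notch2 was the leading receptor at 8.221 to 17.09 TPM (median 10.31), a range that met neither Hey1 above it nor Jag1 below it. Jag1 reached 1.604 to 7.319 TPM (median 2.551), and Dll3 had 0.7958 to 2.614 TPM (median 1.57). Notch3 had 0.6173 to 4.089 TPM (median 1.129), with a highest library 6.62 times its lowest. Dll3 was above Notch3 in 7 of 12 libraries, so their order is not fixed. Notch1 at a median of 0.5081 TPM and Dll1 at a median of 0.2842 TPM were low, and Hes1 was at 0 in 10 of 12 libraries.

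**Figure D1:**
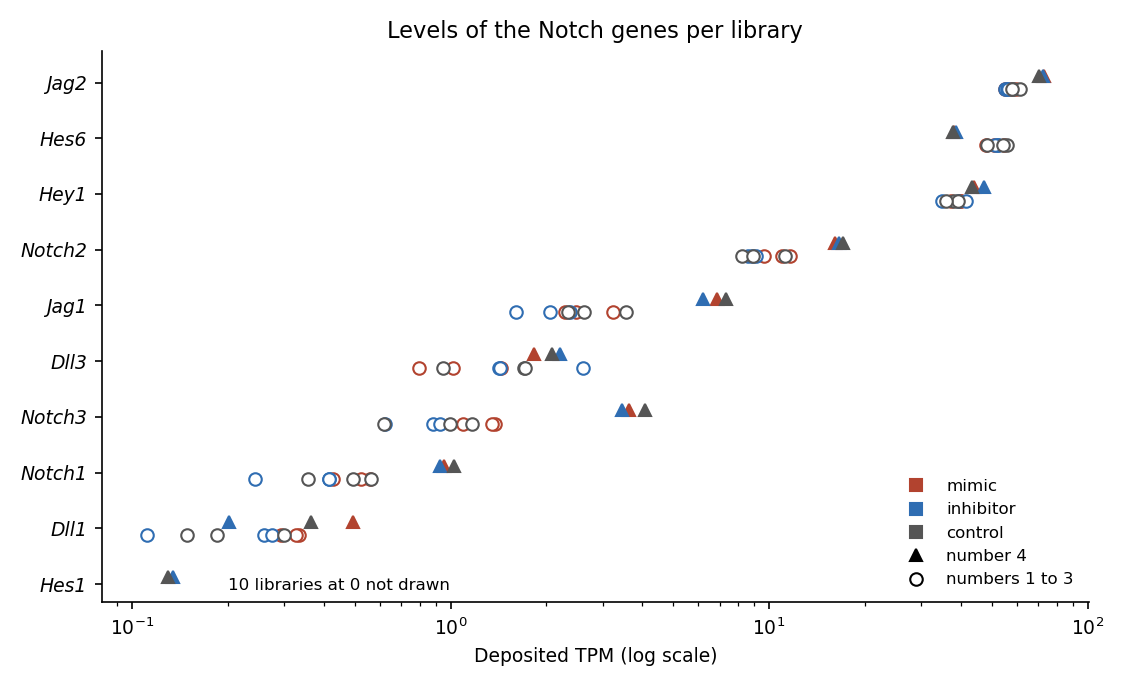
Deposited TPM of each gene in each library on a log axis, with genes ordered by median; colours mark mimic, inhibitor and control, triangles the libraries numbered 4 and circles those numbered 1 to 3. Notch3 spans 0.6173 to 4.089 TPM with its number 4 triangles apart from the circles, while Hes6 triangles lie below its circles.

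Levels within 1 gene are given from here on as CPM, counts scaled to the TMM-adjusted library size. Notch1, Notch2 and Notch3 were all higher in the libraries numbered 4 than in numbers 1 to 3. Notch1, the receptor most studied in neural progenitors, had 1.08, 1.45, 1.40 and 2.61 CPM in mimic libraries 1 to 4. Its levels were 0.673, 1.09, 1.11 and 2.51 CPM in inhibitor libraries 1 to 4, and 1.46, 1.01, 1.32 and 2.71 CPM in control libraries 1 to 4. Number 4 was the highest library in every treatment and lay above all 9 others, whereas the 3 treatments overlapped. For number 4 against numbers 1 to 3 the log2 fold change of Notch1 was 1.17 (SE 0.191, edgeR adjusted p = 0.00067).

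Notch2 had 20.7, 22.5, 19.1 and 32.6 CPM in mimic libraries 1 to 4, and 17.6, 17.8, 17.5 and 33.2 CPM in inhibitor libraries. Control libraries 1 to 4 had 21.6, 17.3, 17.6 and 33.6 CPM. The number 4 libraries averaged 33.1 ± 0.517 CPM (SD, n = 3), against 19.1 ± 2.00 CPM in numbers 1 to 3 (SD, n = 9), with no overlap. The log2 fold change was 0.80 (SE 0.0788, edgeR adjusted p = 2.67e-05).

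Notch3, a receptor best known from vascular smooth muscle and also made by neural progenitors, moved the most. It had 1.97, 1.59, 2.02 and 5.57 CPM in mimic libraries 1 to 4, then 1.36, 1.36, 0.929 and 5.25 CPM in inhibitor libraries. In control libraries 1 to 4 it had 0.896, 1.85, 1.49 and 6.08 CPM. Within a treatment, number 4 was 3.00 times the mean of numbers 1 to 3 in mimic, 4.31 times in inhibitor and 4.30 times in control. The log2 fold change over all treatments was 1.94 (95% interval 1.50 to 2.38, edgeR adjusted p = 3.68e-05). With limma on log2(TPM + 1) it was 1.25, on a scale that understates the change of low genes. Genes on the opposite strand are annotated over Notch1, Notch3 and Dll1, and whether counting used strand is not given in the sources used here.

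Among the ligands, Jag1 and Jag2 were higher in number 4, and Dll1 and Dll3 did not pass the test. Jag1 had 3.49, 2.73, 2.58 and 7.95 CPM in mimic libraries 1 to 4. It had 1.87, 2.29, 2.68 and 7.11 CPM in inhibitor libraries and 3.89, 2.80, 2.97 and 8.22 CPM in control libraries. All 3 number 4 libraries lay above the other 9, with a log2 fold change of 1.48 (SE 0.141, edgeR adjusted p = 2.25e-05). The fitted log2 fold changes were −0.10 for mimic against control (95% interval −1.18 to 0.99) and −0.36 for inhibitor against control (95% interval −1.45 to 0.73).

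Jag2 had 97.8, 105, 99.6 and 135 CPM in mimic libraries 1 to 4, and 102, 98.8, 101 and 132 CPM in inhibitor libraries. Control libraries 1 to 4 had 102, 118, 105 and 126 CPM. Number 4 was again above the other 9 libraries, by a log2 fold change of 0.34 (SE 0.0537, edgeR adjusted p = 0.000498). The shift of this abundant ligand was smaller on the log2 scale than that of Jag1, and the difference between the genes was not tested.

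Dll1, the Delta-like ligand that activates Notch in neighbouring neural progenitors, rested on 9 to 35 counts per library. Mimic libraries 1 to 4 had 0.366, 0.327, 0.377 and 0.579 CPM. Inhibitor libraries had 0.132, 0.292, 0.315 and 0.235 CPM, and control libraries 0.334, 0.181, 0.213 and 0.415 CPM. Every mimic library lay above every inhibitor library, while both overlapped control. Mimic against inhibitor gave a log2 fold change of 0.75 (95% interval −0.14 to 1.65), with an edgeR adjusted p = 1. Groups that do not overlap were found for 0.861% of the 13014 genes in that comparison, and for 1 of the 9 Notch genes tested. Number 4 against numbers 1 to 3 gave 0.50 (95% interval −0.40 to 1.41, edgeR adjusted p = 0.351).

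Dll3, a Delta-like protein that stays largely inside the cell and dampens Notch signalling, had 0.641, 0.512, 0.955 and 1.24 CPM in mimic libraries 1 to 4. Inhibitor libraries had 1.79, 0.926, 0.944 and 1.47 CPM, and control libraries 0.608, 1.19, 1.13 and 1.36 CPM. Mimic averaged 0.837 ± 0.327 CPM against 1.28 ± 0.421 CPM in inhibitor (SD, n = 4 each), and the groups overlapped. The log2 fold change was −0.62 (95% interval −1.37 to 0.14, edgeR adjusted p = 1). For number 4 against numbers 1 to 3 it was 0.53 (edgeR adjusted p = 0.182). Without inhibitor 1, the library where Dll3 was highest, this became 0.72 with an edgeR adjusted p = 0.0383. Leaving out the highest library of numbers 1 to 3 raises this difference by itself. Over the 12 fits that each left out 1 library, the Dll3 difference ran from 0.37 to 0.72. Across all alternative runs, by edgeR, DESeq2 or limma, its adjusted p reached 0.478.

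Hes1, the classical Notch target, was almost silent: 4 counts in inhibitor 4, 4 counts in control 4 and 0 counts in the other 10 libraries. The exact 95% Poisson interval of 4 counts is 1.09 to 10.2, which covers counting error only. A count of 0 allows up to 3 counts, or 0.0400 to 0.0496 CPM depending on the library. Hes1 did not pass the filter on low counts, so 9 of the 10 genes were tested.

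Hey1, a HES-related repressor, was well expressed. It had 30.6, 29.1, 31.8 and 35.9 CPM in mimic libraries 1 to 4, 28.9, 30.8, 33.2 and 38.4 CPM in inhibitor libraries, and 29.5, 33.2, 28.8 and 34.4 CPM in control libraries. Number 4 lay above the other 9 libraries by a narrow margin, with a log2 fold change of 0.24 (SE 0.0660, edgeR adjusted p = 0.0133). The call was lost without mimic 4 or without inhibitor 4, with an edgeR adjusted p of up to 0.111. Mimic against control gave 0.02 (95% interval −0.21 to 0.24).

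Hes6, which inhibits Hes1 and favours neuronal differentiation, was the 1 gene of the 9 that was lower in number 4. It had 38.6, 44.8, 42.8 and 32.9 CPM in mimic libraries 1 to 4. Inhibitor libraries had 45.6, 43.6, 43.0 and 33.1 CPM, and control libraries 39.5, 49.9, 45.9 and 31.8 CPM. All 3 number 4 libraries were below the other 9, with a log2 fold change of −0.42 (SE 0.0678, edgeR adjusted p = 0.000593). Number 4 was 0.781, 0.751 and 0.705 times the mean of numbers 1 to 3 in mimic, inhibitor and control.

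**Figure D2:**
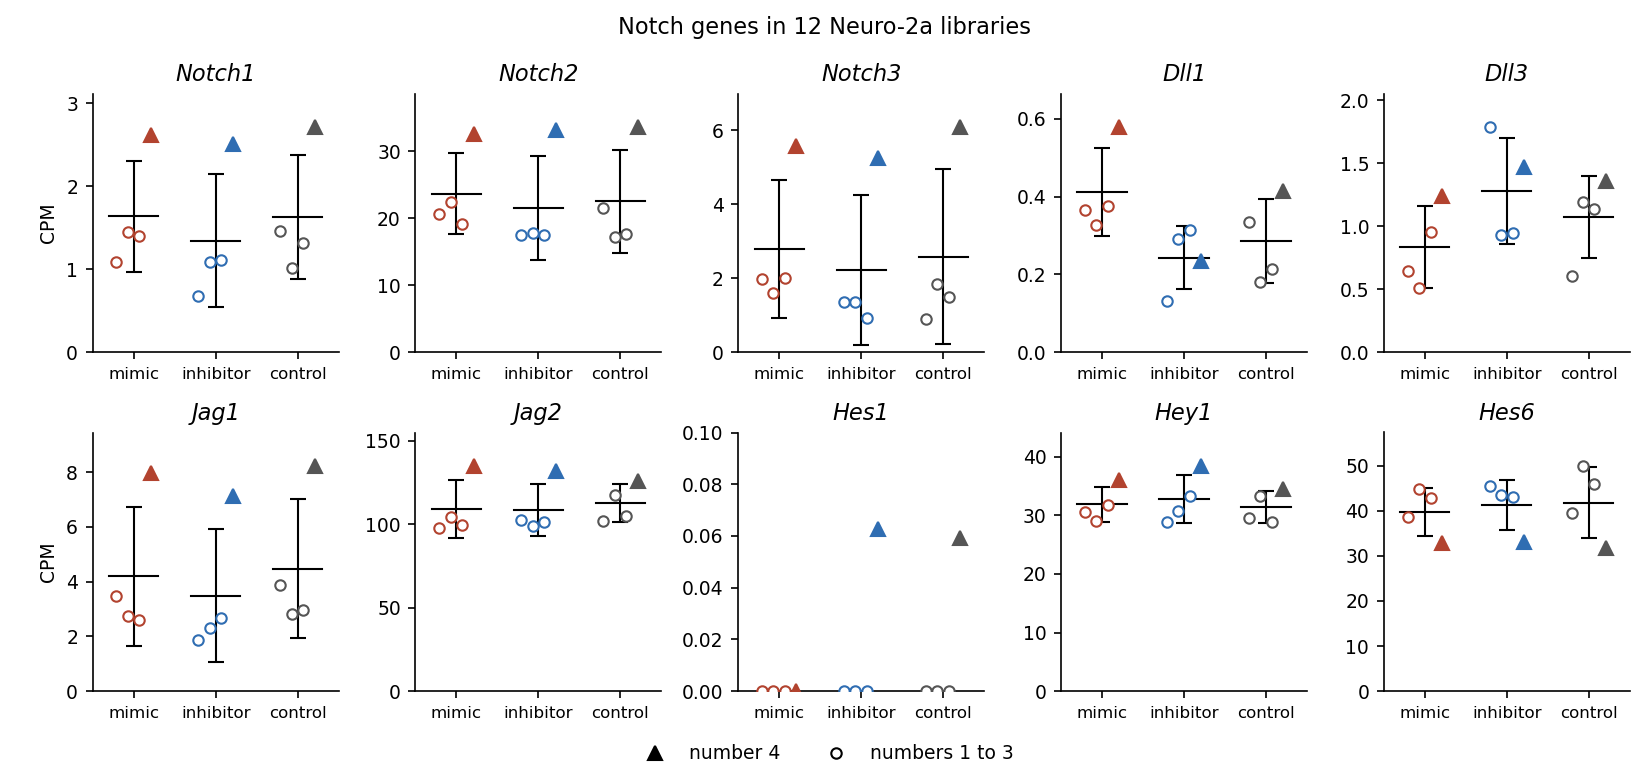
CPM of each gene in mimic, inhibitor and control libraries, with triangles for number 4, circles for numbers 1 to 3, and a line with bars for the mean and SD of 4 libraries (left out for Hes1). For Notch3 the number 4 libraries sit between 5.25 and 6.08 CPM and the other 9 at or below 2.02 CPM, in all treatments.

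In all, 7 of the 9 Notch genes tested differed between number 4 and numbers 1 to 3, with 6 higher and 1 lower. These counts stand beside 20.4% of all genes called higher and 21.1% called lower. Groups that do not overlap gave the same 6 and 1, beside 17.9% of all genes with number 4 above the other 9 libraries and 19% below. The median log2 fold change was 0.53 over the 9 genes and −7.05e-05 over all genes tested. For number 3 against numbers 1 and 2, 0 of the 9 were called, as were 0% of all genes with edgeR, with a median of 0.01 over the 9 genes. In that comparison 282 genes had an unadjusted p under 0.05, none of the 9 among them, and DESeq2 called 139 genes.

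Markers of other cell types were listed beside the shift by number. Summed endothelial markers were 2.8721 to 3.3563 TPM in number 4 against 1.9228 to 2.9009 TPM in numbers 1 to 3, with 3 of 4 genes in the tables. Pecam1, at 1.41 to 2.81 TPM, was the endothelial gene called higher (edgeR adjusted p = 0.0114). Tek differed by −0.02 on the log2 scale (edgeR adjusted p = 0.967), and Cdh5 reached 0.108 TPM at most. Summed epithelial markers were 4.0982 to 7.4651 TPM against 1.8652 to 4.6433 TPM, with 3 of 4 genes in the tables. The largest, Krt8, had 1.78 to 7.27 TPM and was not called (edgeR adjusted p = 0.0601). Cdh1 and Epcam reached 0.206 and 0.0453 TPM at most. Fibroblast and mesenchymal markers gave 6.8918 to 7.3529 TPM against 6.1293 to 9.8981 TPM, with 5 of 7 genes in the tables and Col3a1 and Lum not among them. The largest, Pdgfrb, had 5.3 to 8.92 TPM and was not called. Pdgfra, at 0.173 to 0.808 TPM, was called higher (edgeR adjusted p = 0.0211). Glial markers, 5 of 6 in the tables, gave 4.7477 to 5.1849 TPM against 3.425 to 5.0189 TPM, and immune markers, 3 of 5, gave 0 to 0.3192 TPM against 0 to 0.6223 TPM. Of the 15 sympathetic neuroblastoma markers, 8 were called lower and 3 higher in number 4, among those higher the neuronal enolase Eno2 at 1.48 on the log2 scale. The part of these markers in the result was not tested. In bulk RNA, more cells with a gene and more of its RNA per cell cannot be told apart.

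Between treatments, none of the 9 Notch genes tested passed edgeR's test. Differences between treatments are log2 values of the first-named group over the second. For mimic against control, 0% of the 13014 genes were called and 71 had an unadjusted p under 0.05, with none of the 9 among them. Groups that do not overlap were found for 0.684% of genes and for 0 of the 9. Of the 9 log2 fold changes, 5 were above 0 and 4 below, with a median of 0.01 against −0.01 over all genes. DESeq2 called 3 genes and limma called 0, none of them a Notch gene.

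For inhibitor against control, 0% of genes were called and 67 had an unadjusted p under 0.05, again without a Notch gene. Groups that do not overlap were found for 0.645% of genes and for 0 of the 9. The 9 log2 fold changes lay above 0 for 2 genes and below 0 for 7, with a median of −0.07. DESeq2 called 1 gene, which was not a Notch gene, and limma 0. For mimic against inhibitor, 0% of genes were called and 77 had an unadjusted p under 0.05, none of them a Notch gene. There, 6 of the 9 log2 fold changes were above 0, with a median of 0.14. DESeq2 called 6 genes and limma 0, without a Notch gene. The treatments share their control libraries, and mimic against inhibitor shares a group with each of the others, so these comparisons are not independent.

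Intervals of the treatment differences were narrower for the abundant Jag2 and Hes6 than for Notch1 and Notch3, which shifted more by number on the log2 scale. Dll1 and Dll3, not called by number, had wide intervals too. For mimic against control these were −0.36 to 1.41 and −1.12 to 0.40. Jag2 differed by −0.05 on the log2 scale between mimic and control (95% interval −0.31 to 0.22) and by −0.05 between inhibitor and control (95% interval −0.32 to 0.21). Hes6 differed by −0.07 between mimic and control (95% interval −0.39 to 0.25). For Notch3 the interval ran from −1.34 to 1.55, and for Notch1 from −0.91 to 0.93. These bounds come from the fit with treatment alone, in which the difference by number counts as spread.

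With the number 4 libraries left out, 0 of the 9 Notch genes were called in any treatment comparison by edgeR. In numbers 1 to 3 alone, Notch3 differed by 0.61 on the log2 scale between mimic and inhibitor (edgeR adjusted p = 1), against 0.32 over all libraries. Notch2 differed by 0.24 between mimic and inhibitor (edgeR adjusted p = 1). Jag1 differed by −0.50 between inhibitor and control (edgeR adjusted p = 0.999). None of these differences passed the correction over all genes. Of the seed-matched genes, Dll3 differed by −0.47 between mimic and control, Hes6 by −0.10 and Hey1 by less than 0.01.

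**Figure D3:**
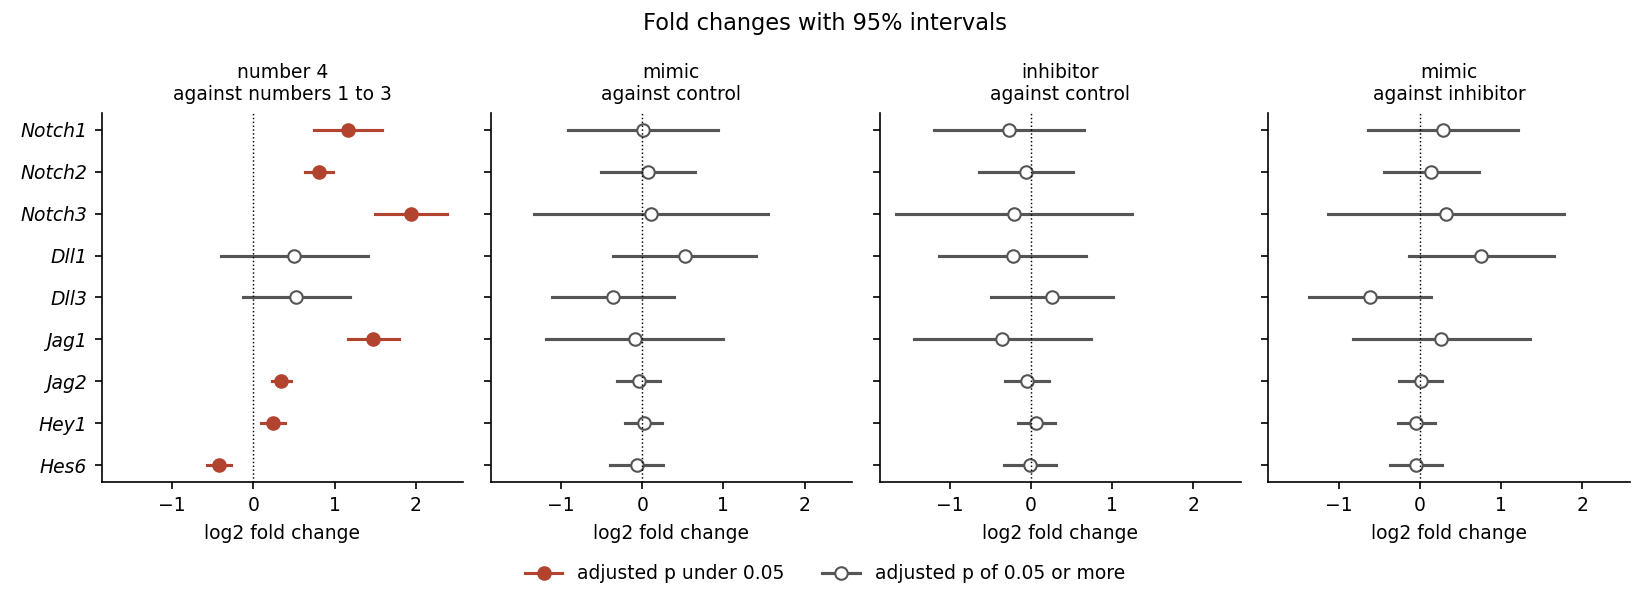
Log2 fold changes with 95% intervals of the 9 Notch genes tested, for number 4 against numbers 1 to 3 and for the 3 treatment comparisons; filled points had an edgeR adjusted p under 0.05. There are 7 filled points for number 4 and 0 for the treatments.

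The wider pathway was followed through 78 listed genes, of which 76 were in the tables and 71 were tested. In number 4, 28 of the 71 were higher and 13 lower, with a median log2 fold change of 0.11. Without the Notch genes above, 22 of 62 were higher and 12 lower, with a median of 0.02. These counts stand beside 20.4% of all genes called higher and 21.1% called lower, and the 12 of 62 lower are near that share. Counts by role rest on few genes, and several are near those shares too. By role, the calls were 3 higher and 0 lower among the 4 receptors tested and 4 higher and 0 lower among the 6 ligands. They were 4 higher and 0 lower among the 6 target genes, and 1 higher and 3 lower among the 13 nuclear corepressors. Notch4, the receptor not called, gave a log2 fold change of −0.82 (95% interval −1.67 to 0.03, edgeR adjusted p = 0.113). The target gene Heyl, also not called, had 0.562, 0.501 and 0.622 CPM in mimic, inhibitor and control number 4. Its other 9 libraries had 0.638 to 1.28 CPM. The cleavage machinery had 3 higher and 2 lower of 9, and genes of receptor traffic and turnover 5 higher and 3 lower of 10. Nuclear activators had 3 higher and 1 lower of 9, glycosylation genes 2 higher and 1 lower of 6, and genes of ligand endocytosis 2 higher and 1 lower of 4. The remaining HES genes, Hes2, Hes3 and Hes6, had 1 higher and 1 lower of 3, and the single proneural-type factor tested, Insm1, was lower.

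Hey2, a target gene and close relative of Hey1, had 8.04, 7.94 and 8.11 CPM in mimic, inhibitor and control number 4, against 2.62 to 4.90 CPM in the other 9 libraries. Its log2 fold change was 1.16 (SE 0.167, edgeR adjusted p = 0.0003). Nrarp, a target gene that limits Notch signalling, was higher by 0.84 (edgeR adjusted p = 0.000199). Lfng, a glycosyltransferase that tunes which ligands a receptor answers to, had 18.2, 18.2 and 18.4 CPM in number 4, against 9.36 to 12.7 CPM in the others, a log2 fold change of 0.82 (edgeR adjusted p = 5.08e-05).

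Rbpj, the DNA-binding partner of the cut receptor, was higher by 0.71 (edgeR adjusted p = 3.76e-05), and the mouse genome holds processed copies of it that could share reads. Mib1, a ubiquitin ligase that lets ligands be taken up, was higher by 0.71 (edgeR adjusted p = 0.00255). Insm1, a zinc-finger factor of neuroendocrine and neuronal precursors, was lower by a log2 fold change of −0.73 (SE 0.0436, edgeR adjusted p = 1.12e-06). It had 140, 144 and 139 CPM in number 4, against 219 to 242 CPM in the other 9 libraries. Hes5, a main Notch target in the embryonic brain, differed by 0.01 (SE 0.149, edgeR adjusted p = 0.976). It was highest in number 3, with 2.88, 2.43 and 3.04 CPM in mimic, inhibitor and control, against 1.55 to 2.35 CPM in the other 9 libraries. Number 3 against numbers 1 and 2 gave a log2 fold change of 0.71 (SE 0.154) for Hes5, which was not called. Dll4 and Neurod1 had a median of 0 TPM, and Neurog1 and Atoh1 were not among the genes analysed here.

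In the treatment comparisons, 0 of the 71 pathway genes were called by edgeR. At a mean of at least 2 CPM, among the smallest p-values for mimic against control were those of Neurl1a, a ubiquitin ligase, at −0.15 on the log2 scale, and of the corepressor Hdac1 at 0.13. For inhibitor against control the 3 smallest, also at a mean of at least 2 CPM, belonged to Hdac1 at 0.11, Ctbp2, a corepressor, at −0.10 and the γ-secretase gene Psen2 at −0.15. For mimic against inhibitor, under the same limit, they included Numb, which turns down Notch receptors, at 0.15 and Spen, a corepressor that binds RBPJ, at 0.14. Each of these had an edgeR adjusted p = 1.

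**Figure D4:**
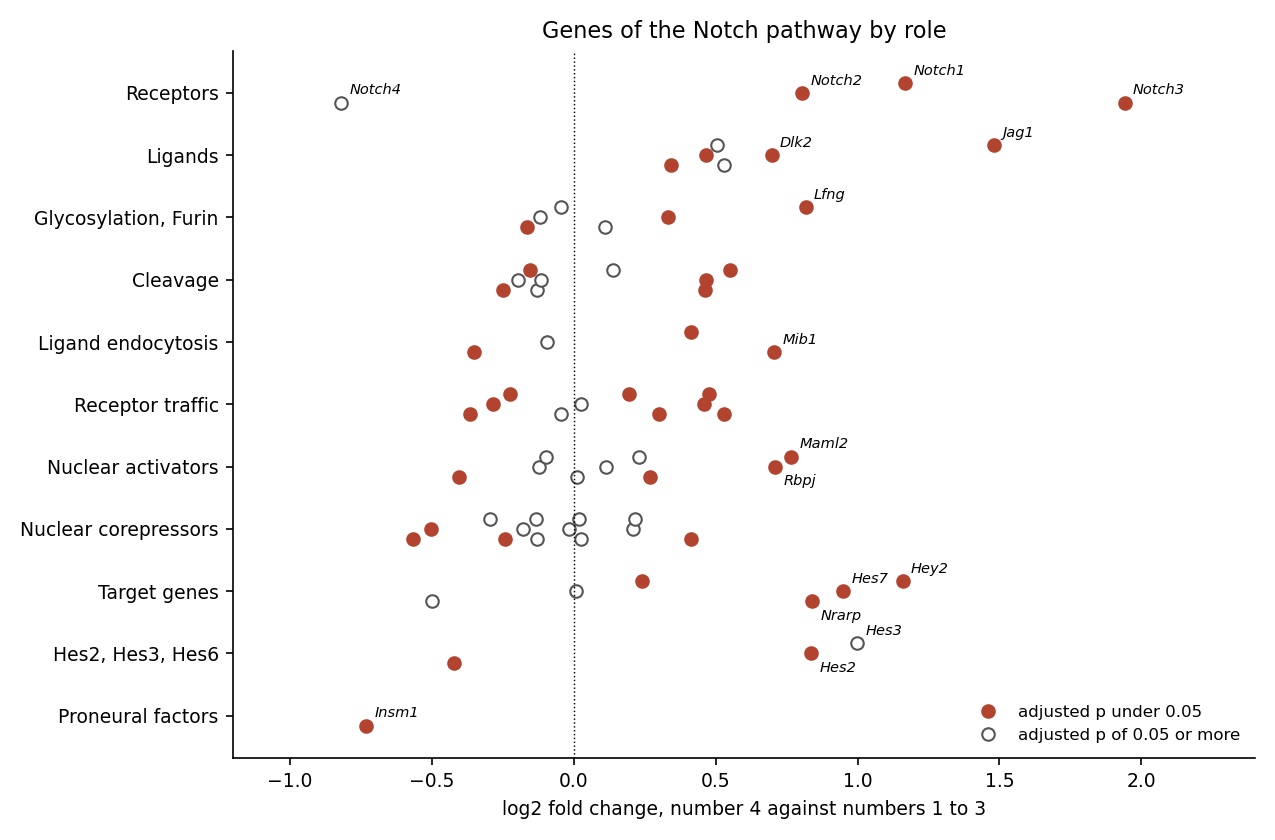
Log2 fold change of each pathway gene tested, number 4 against numbers 1 to 3, in rows by role; filled points had an edgeR adjusted p under 0.05. Receptors, ligands and target genes hold points at 1.94 (Notch3), 1.48 (Jag1) and 1.16 (Hey2), while Insm1 lies at −0.73.

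Promoters were read for the Notch genes, whichever way they moved, from 250 bases before to 50 after the start in RefSeq (GRCm38.p6), and 8 of the 10 genes had one. Hes1 and Hey1, listed as target genes among the 10, had no window and were not searched. Whether Notch signalling also acts on the other 8 was not tested. The motifs searched on both strands were the RBPJ core TGGGAA, the HES-type N-box CACNAG and the E-box CACGTG. N-box matches on opposite strands can overlap, as 2 of the 3 in Notch1 do. Notch3 and Jag1 are shown because they had the greatest shifts, at chr17:32166841-32167140 and chr2:137116471-137116770, both on the minus strand, with N-box letters in capitals.
Notch3: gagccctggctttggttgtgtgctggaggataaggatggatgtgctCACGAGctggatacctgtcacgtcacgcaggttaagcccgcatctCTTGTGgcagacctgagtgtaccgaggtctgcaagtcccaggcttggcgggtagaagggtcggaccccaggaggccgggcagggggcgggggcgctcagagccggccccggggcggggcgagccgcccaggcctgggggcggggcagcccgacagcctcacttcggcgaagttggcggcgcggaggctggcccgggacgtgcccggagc
Jag1: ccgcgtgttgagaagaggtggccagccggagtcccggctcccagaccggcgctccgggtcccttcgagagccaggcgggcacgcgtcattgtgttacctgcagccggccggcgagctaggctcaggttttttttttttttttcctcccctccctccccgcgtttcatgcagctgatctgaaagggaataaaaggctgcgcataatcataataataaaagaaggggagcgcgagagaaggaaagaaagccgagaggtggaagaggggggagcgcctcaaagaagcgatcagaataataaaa
None of the 8 genes had an RBPJ core in its window, which says only that these letters are not there, while 25.6% of 32851 promoters held it. N-box letters occurred 2 times in Notch3, 3 times in Notch1, 1 time each in Notch2 and Dll1 and 2 times in 1 of the windows of Hes6, and 42.5% of promoters held at least 1. The target genes Hey2 and Hes5 each held the core 2 times, and are shown because Hey2 was higher in number 4 while Hes5 did not pass the test. Each window has the core or its complement in capitals, Hey2 lying on chromosome 10 and Hes5 on chromosome 4.
Hey2 upstream: tgcgcggtggcaTTCCCAcgcctctgccaa
Hey2 at the start: tgggctgcagcgTGGGAAagaacctccagg
Hes5 upstream: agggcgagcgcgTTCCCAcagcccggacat
Hes5 downstream of it: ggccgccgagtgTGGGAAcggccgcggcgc
Among other target genes, Hes7 held the core 1 time and Nrarp, also higher in number 4, held it 0 times. Binding of RBPJ was not measured.

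Genes with the most similar pattern over the 12 libraries were ranked by the root mean square difference of mean-centred log2(CPM + 1) among 10783 genes, where smaller is more alike. For Notch3, whose own SD was 0.679, these were Slit1 at 0.165, an axon guidance ligand, Sncb at 0.204, which encodes β-synuclein, and Slc2a3 at 0.204, a neuronal glucose transporter. For Jag1, with an SD of 0.583, they were Myh7b at 0.171, a myosin heavy chain, Bhlhe41 at 0.175, a clock-related repressor, and Thsd7a at 0.176. For Notch2, with an SD of 0.370, they were Kcnc1 at 0.0726, a potassium channel, Creb3l2 at 0.0733, a membrane-bound transcription factor, and Fam117b at 0.0762. Adding 1 to CPM understates the change of low genes, so genes alike here can differ in fold change. For number 4 against numbers 1 to 3, Notch3 had 1.94 on the log2 scale. Slit1, Sncb and Slc2a3 had 2.09, 1.29 and 1.33. Jag1 had 1.48, against 1.78, 1.30 and 0.99 for Myh7b, Bhlhe41 and Thsd7a. Notch2 had 0.80, against 0.89, 0.80 and 0.72 for Kcnc1, Creb3l2 and Fam117b. All these genes share the 12 libraries and their split by number.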

How the data were processed

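The authors deposited read counts (whole numbers per gene) and TPM values for 12 Neuro-2a libraries. Build GRCm39 and the tools fastp, STAR, featureCounts, StringTie and edgeR are named per the submitters' processing notes, and their roles, the annotation and the strandedness are not stated there.

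The count test was edgeR 4.0.16 under R 4.3.3 (TMM scaling, filterByExpr leaving 13014 genes, robust quasi-likelihood fit, two-sided, Benjamini-Hochberg over all genes, called under 0.05). Treatment contrasts used a model with group alone, and contrasts by number a model with group and number. Steps were tested on simulated data. No library was a copy of another of its group (chi-square of 20.2 or more per degree of freedom). Separate cultures are not stated in the labels, so the spread behind each p-value may be technical. Poisson intervals and floors cover counting error only, and at 60695388 or more counts per library they matter for the lowest genes.

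TPM served for levels between genes, for summed markers and for the limma alternative. The members, the lists and the contrast by number were chosen with earlier results of these data known. Other pathway genes were named as the 6 called ones with the greatest absolute log2 fold change and a mean of at least 2 CPM or, with none called, the 3 with the smallest p. Genes at 0 are named besides. Hes5, Hes7, Heyl, Notch4 and the marker genes given with values were picked after those values were seen. Some genes that the rule takes were left out. Alternatives were DESeq2 1.42.0, limma 3.58.1 on log2(TPM + 1), other scaling and filters, numbers 1 to 3 alone, a block by number and leaving out each library. Sequences come from RefSeq (GRCm38.p6) and GENCODE M21 (GRCm38), not the authors' build.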

Additional observations from a re-analysis of the deposited data

Results flagged for a closer look

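A library far from the other 3 of its treatment was found in 8 of the 30 sets of 4 libraries, and each of the 8 is a library numbered 4. Chance gives such a gap in about 1 in 20 sets, a rate that does not apply to the 2 sets of Hes1, where any count above 0 beside 3 libraries at 0 gives a share of 1. The sets are 10 genes in the same 12 libraries and are not independent, so 8 of 30 cannot be weighed against that rate. Of all genes tested, 20.4% were called higher and 21.1% lower in number 4. The share of all genes with such a gap is not given here. The values are the gap to the nearest library of the treatment as a share of its whole range. For Notch2 this was 0.982 in inhibitor 4 (33.2 CPM). For Notch3 it was 0.893 in mimic 4 (5.57 CPM) and 0.899 in inhibitor 4 (5.25 CPM). For Jag1 it was 0.831 in mimic 4 (7.95 CPM) and 0.845 in inhibitor 4 (7.11 CPM). For Jag2 it was 0.895 in inhibitor 4 (132 CPM). For Hes1 it was 1 in inhibitor 4 (0.0627 CPM) and 1 in control 4 (0.0592 CPM), each resting on 4 counts.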

How the results depend on the processing

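Genes called by DESeq2 numbered 3 for mimic against control, 1 for inhibitor against control, 6 for mimic against inhibitor and 139 for number 3 against numbers 1 and 2, where edgeR called 0 in each. Limma on log2(TPM + 1) without a filter called 1 for mimic against inhibitor. In numbers 1 to 3 alone, the log2 fold change turned to −0.0015 for Hey1 (mimic against control), 0.0196 for Dll1 (inhibitor against control) and −0.0033 for Jag2 (mimic against inhibitor); the cause was not tested. With a replicate block by number, edgeR called 0 genes and 0 Notch genes in each treatment comparison. Under the block, log2 fold changes were 0.28 for Notch3 and 0.02 for Notch1 (mimic against control), and −0.41 for Jag1 (inhibitor against control), each with an edgeR adjusted p = 1. The numbers were not taken to pair the libraries: deviations of same-numbered libraries over 9219 genes correlated at −0.1835 to 0.8855, above 0.1 in 9 of 12 pairs, and 9 of 12 libraries correlated best with their own number.

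Leaving out 1 library in turn, the count of genes called ran from 0 to 1 for mimic against control and for mimic against inhibitor (1 without control 2). It ran from 0 to 569 for number 3 against numbers 1 and 2, with 569 without control 2. For mimic against control, log2 fold changes ran from −0.3061 to 0.3701 for Notch1, −0.1162 to 0.3318 for Notch2, −0.4704 to 0.9732 for Notch3, −0.6044 to 0.3754 for Jag1, −0.1606 to 0.0118 for Jag2, −0.1803 to 0.0274 for Hes6 and −0.0448 to 0.0613 for Hey1. For inhibitor against control they ran from −0.7630 to 0.0878 for Notch1, −0.3554 to 0.1903 for Notch2, −1.0822 to 0.6508 for Notch3, −0.3943 to 0.0029 for Dll1, −0.9693 to 0.1136 for Jag1, −0.1600 to 0.0040 for Jag2, −0.1275 to 0.0800 for Hes6 and −0.0238 to 0.1159 for Hey1. For mimic against inhibitor they ran from −0.0319 to 0.7713 for Notch1, −0.0483 to 0.4291 for Notch2, −0.2552 to 1.1895 for Notch3, −0.2463 to 0.8729 for Jag1, −0.1070 to 0.1143 for Jag2, −0.1456 to 0.0296 for Hes6 and −0.1039 to 0.0402 for Hey1. For number 4 against numbers 1 to 3, no Notch gene changed direction under any alternative run. At 9 to 35 counts, Dll1 limits what these libraries can show.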
